A study of Mus musculus with 24 samples.

Results

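Extraocular muscle, the small muscles that move the eye, was compared between mdx and control mice at 28 days of age. The comparison holds 6 arrays, chosen by their titles: 3 of mdx muscle and 3 of control muscle, out of 24 arrays in the study. Each array measured total RNA on a short-oligonucleotide Affymetrix array, with 1 value per probe set. The study's 8 groups, of 3 arrays each, were control (wild type) and mdx muscle, taken at 14, 28, 56 and 112 days. Strain is not named in the labels, and where the strains differed, mutation and strain cannot be told apart. Separate animals are not mentioned either, so every p-value reflects how far these samples spread, a spread that may be technical.

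Mice of the mdx mutant have a nonsense mutation in Dmd and lack dystrophin, its protein, which ties the contractile apparatus of a muscle fibre to the membrane and the matrix outside it. Without dystrophin, limb muscle of mdx mice goes through rounds of fibre death, entry of macrophages and regeneration that begin at about the age of weaning. Extraocular muscle is largely spared in mdx mice and in Duchenne muscular dystrophy. Values below are intensities on a scale where each array has a trimmed mean of 500, and differences are log2 fold changes, mdx minus control, with standard errors (SE) from limma. Calls were made in limma at an adjusted p under 0.05, with adjustment over all 7453 probe sets tested.

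At 28 days 1 probe set was called, that of Dmwd, a WD-repeat gene that lies next to the myotonic dystrophy kinase gene Dmpk on chromosome 7. It fell 4.81-fold on the log2(intensity + 16) scale used throughout, on which changes of dim probe sets come out too small. The call was 0.0134% of the 7453 tested, with 0 called higher and 1 called lower in mdx muscle. At an unadjusted p under 0.05 there were 226 probe sets (3.03%), of which 115 were higher (1.54%) and 111 lower (1.49%) in mdx muscle. The next adjusted p after that of Dmwd was 0.346. The middle of the distribution lay close to 0, with a median log2 difference of 0.02 and 5th and 95th percentiles of -0.49 and 0.49. A difference of at least 1 on the log2 scale was found for 100 probe sets, and in 42 of those the mdx and control arrays did not overlap. Choosing large differences itself favours groups without overlap. Over all tested probe sets the mdx arrays lay wholly above the control arrays in 4.31% and wholly below in 3.38%.

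**Figure D1:**
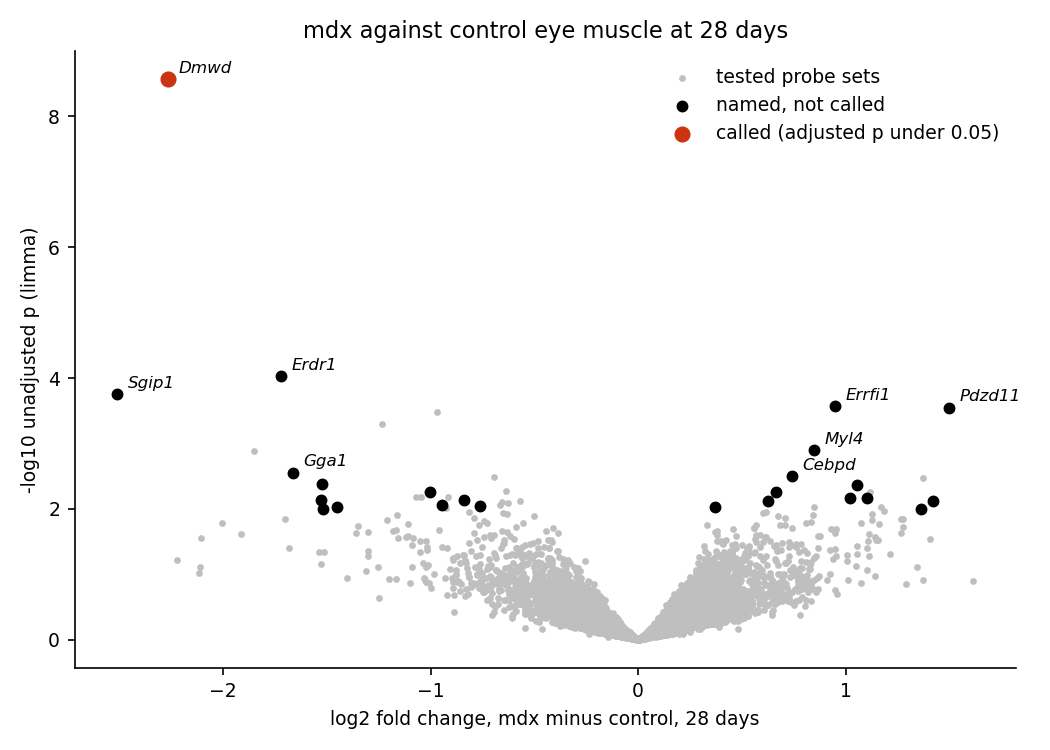
Each point is a tested probe set at 28 days, with the log2 fold change (mdx minus control) on the x axis and -log10 of the unadjusted limma p on the y axis. Dmwd, in red, stands alone at -2.26, and the other genes named by the rule, in black, were not called.

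The 6 arrays were of like overall brightness. The median deposited intensity lay between 611.5 and 650.9, and the mean correlation of log2 levels with the other 28-day arrays between 0.932 and 0.951, lowest for control replicate 2. The largest intensity on an array differed more: it was 80488 and 85681 on control replicates 2 and 3, and between 39143 and 51381 on the other 4 arrays. Several muscle transcripts were bright, as with Acta1, the skeletal muscle actin (5848 to 23550), and Myh1, a fast myosin heavy chain (11031 to 28543), while the probe set of Myh2, another fast myosin, was dim (9.83 to 44.8) and not tested. Single probe sets of other muscle genes were dim as well, as with 1 of Ckm, the muscle creatine kinase (53.8 to 271.7). The Y-linked gene Eif2s3y was measured at 244.8 to 487.0 in the 6 arrays and Xist, which is expressed from the inactive X, at 8.06 to 48.8. Of other Y-linked genes, Uty was at 102.4 to 190.7 and Kdm5d, too dim to be tested, at 14.6 to 65.8.

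Dmd was examined first, as a check of the labels. Its probe set had intensities of 198.5, 220.9 and 234.6 in control replicates 1 to 3 and of 122.9, 94.7 and 128.2 in mdx replicates 1 to 3. All 3 mdx arrays lay below all 3 control arrays. The log2 difference was -0.84 ± 0.28 (SE, n = 3 against 3; limma adjusted p = 0.9996), so that Dmd was not called at this age. At 14, 56 and 112 days the same probe set gave -1.13, -1.92 and -1.41, and the test of the 28-day difference against the mean of those ages gave 0.65 ± 0.33 (unadjusted p = 0.0612).

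Utrn encodes utrophin, the closest relative of dystrophin, and had a pair of tested probe sets that pointed opposite ways. The first had 227.3, 41.5 and 307.0 in control and 250.7, 176.3 and 246.0 in mdx muscle, a log2 difference of 0.52 ± 0.50. The second had 341.1, 85.9 and 244.1 in control and 209.6, 65.3 and 136.2 in mdx muscle, a difference of -0.59 ± 0.54. In both the arrays of the groups overlapped, and control replicate 2 was the lowest control array. The dystrophin complex list, which holds dystrophin, its membrane partners and utrophin, had 12 tested members, 8 higher and 4 lower, with a median of 0.09. Limma called 0 of them, and 1, Dmd, had an unadjusted p under 0.05. Sgce, a sarcoglycan, had a difference of 0.34 ± 0.27 and Sspn, sarcospan, of 0.31 ± 0.27, each with overlapping arrays.

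Dmwd had intensities of 387.8, 506.0 and 347.0 in control muscle, a mean of 413.6 ± 82.6 (SD, n = 3). In mdx muscle it had 84.0, 72.4 and 62.0, a mean of 72.8 ± 11 (SD, n = 3). The highest mdx array lay far below the lowest control array. The log2 difference was -2.26 ± 0.23 (limma adjusted p = 1.98e-05). Only 1 probe set represented the gene, so no other probe set bears on the value. With the 28-day arrays fitted alone, which leaves fewer arrays to estimate the spread, the difference was the same and the limma adjusted p was 0.173.

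Dmwd was also low against every other group of the study. Its mean was 344.0 ± 102 in control and 272.8 ± 30.5 in mdx muscle at 14 days, 348.8 ± 56.0 and 424.7 ± 57.5 at 56 days, and 352.7 ± 17.4 and 357.4 ± 84.9 at 112 days (SD, n = 3 each). Over the 21 arrays outside the 28-day mdx group the lowest intensity was 239.2. The log2 differences at the other ages were -0.28 (limma adjusted p = 0.907), 0.28 (0.661) and -0.01 (0.999), each ± 0.23. The 28-day difference minus the mean of the other ages was -2.26 ± 0.27 (limma adjusted p = 0.000244). In that test 1 of the 7453 probe sets was called (0.0134%) and 264 had an unadjusted p under 0.05 (3.54%). No arrays are shared between the ages.

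The nearest genes to Dmwd on chromosome 7 that have a probe set had overlapping groups. Apart from Dmpk, they had from 2 genes (Foxa3 and Six5) to 19 genes (Fosb) between them and Dmwd. Dmpk, which follows Dmwd with no gene between them in the RefSeq gene table, had 3475, 5275 and 7587 in control and 4363, 5102 and 2742 in mdx muscle, a log2 difference of -0.39 ± 0.28 with overlapping arrays. On the side before Dmwd, Irf2bp1 had -0.21 ± 0.17, Mypop 0.36 ± 0.35, Pglyrp1 0.20 ± 0.88 and Psg17 0.08 ± 0.25. On the side of Dmpk, Vasp had -0.20 ± 0.21, Rtn2 -0.47 ± 0.26 and Fosb 0.26 ± 0.34. The arrays overlapped in each of these genes, and Foxa3 and Six5, also near Dmwd, were too dim to be tested.

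**Figure D2:**
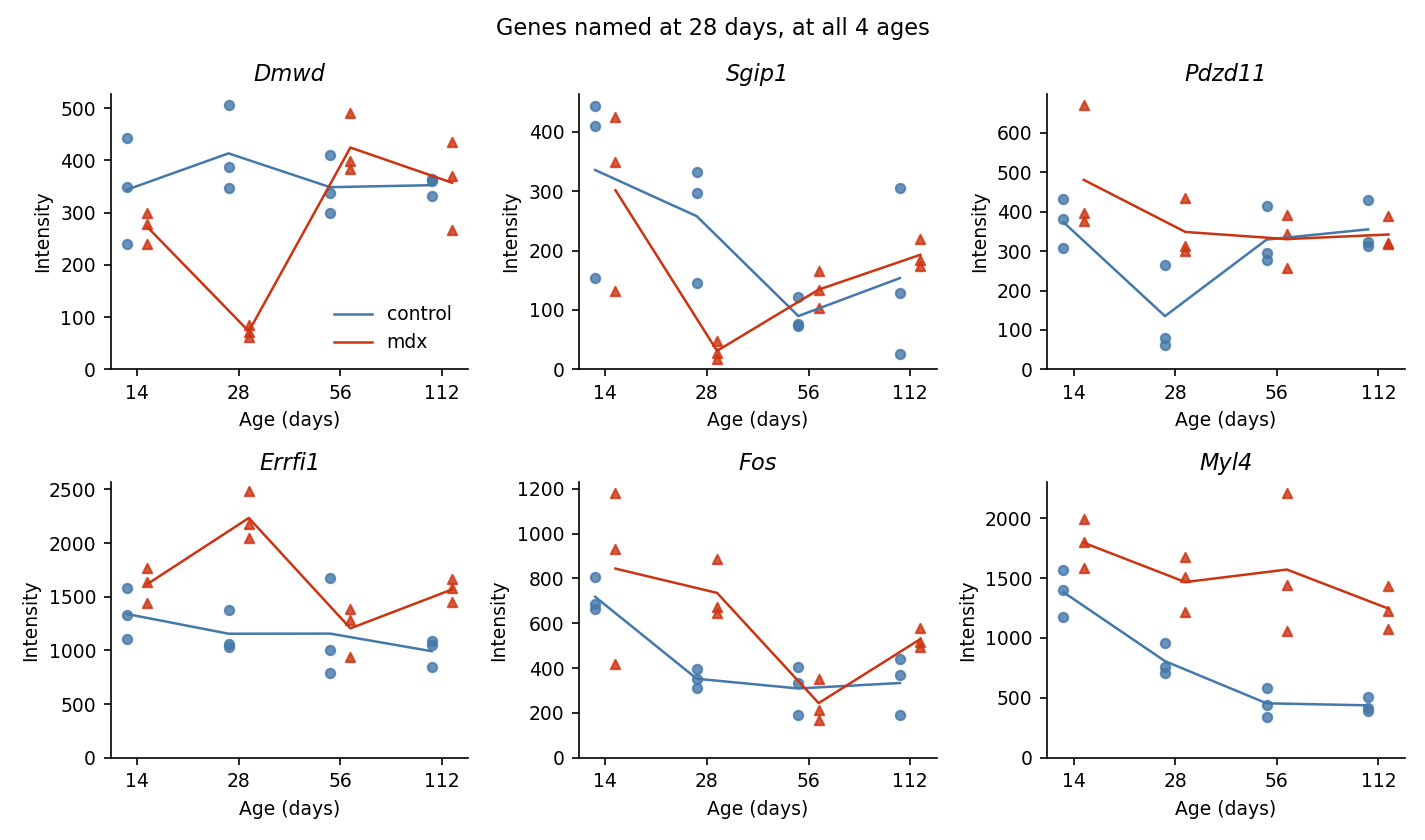
Intensity (y axis, from 0; trimmed mean of each array 500) against age in days for 6 genes named at 28 days, with a point per array, lines through the group means, control in blue circles and mdx in red triangles. Dmwd was low in the 3 mdx arrays of 28 days alone (62.0 to 84.0), whereas the 28-day difference of Pdzd11 lay with low control arrays. That of the Myl4 probe set shown was seen at 56 and 112 days as well, which its second probe set did not share (0.30 and -0.01).

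The genes named next combined an unadjusted p under 0.01 with groups that did not overlap. Such probe sets numbered 13 higher in mdx muscle (0.174% of those tested) and 19 lower (0.255%), and limma called none of them apart from Dmwd. The 12 genes with the largest difference in each direction are described. Among all tested probe sets, whatever their p, the 3 mdx arrays lay above the 3 control arrays in 321 (4.31%) and below in 252 (3.38%).

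**Figure D3:**
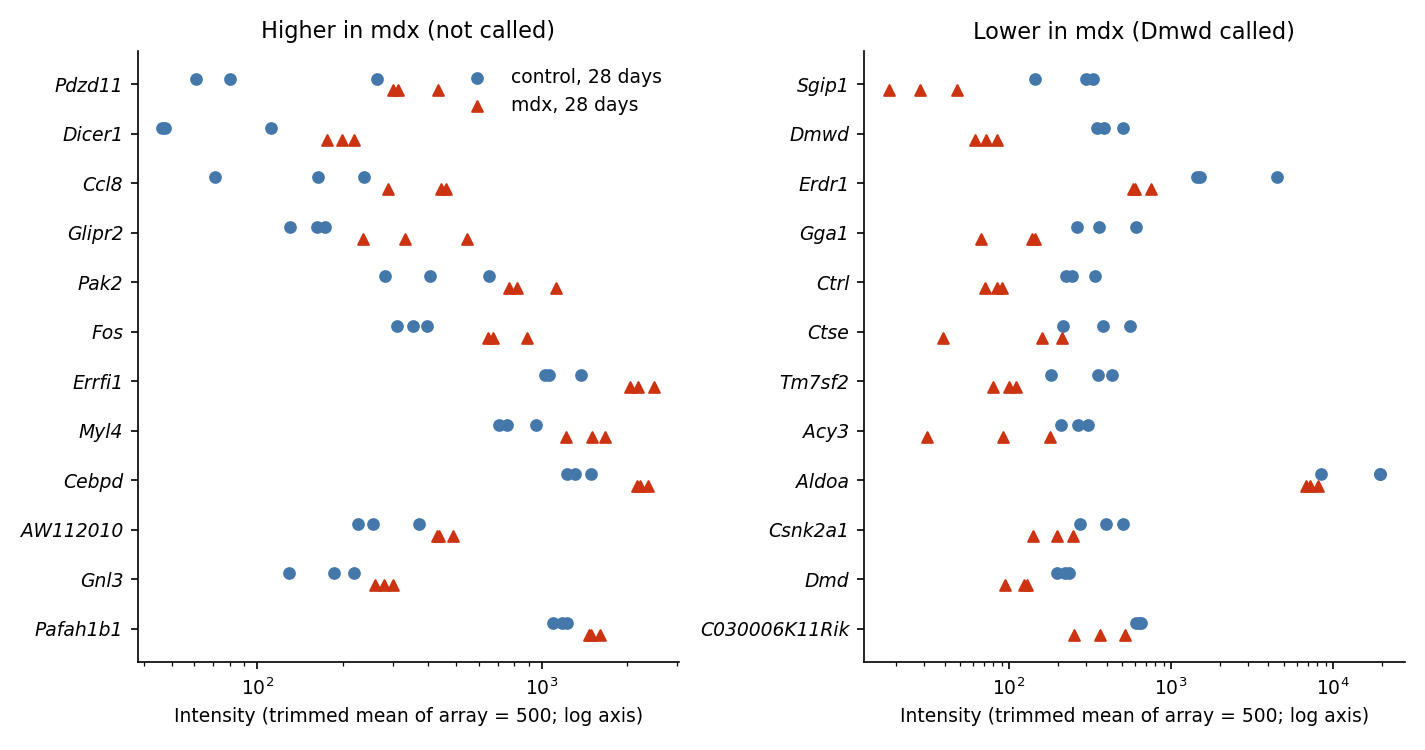
Intensity in each 28-day array (log axis) of the 12 genes with the largest difference in each direction, control as blue circles and mdx as red triangles. The groups do not overlap in any of these genes, which the rule required, and the gap is widest for Dmwd and Sgip1.

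Several of the genes with higher values in mdx muscle are induced early after a stimulus. Fos, a subunit of the AP-1 transcription factor, had 394.2, 352.9 and 311.0 in control and 885.4, 647.2 and 674.2 in mdx muscle, a log2 difference of 1.02 ± 0.34. Every mdx array was well above the highest control array. Errfi1, a feedback inhibitor of the EGF receptor, had 1376, 1029 and 1063 against 2174, 2045 and 2485, a difference of 0.95 ± 0.22 (limma adjusted p = 0.402), and all mdx arrays lay above the control arrays. Its second probe set gave 1.16 ± 0.50 with overlapping arrays, and 0.52 without control replicate 2. Cebpd, a transcription factor of the inflammatory response, had 1491, 1311 and 1233 against 2168, 2364 and 2223, a difference of 0.74 ± 0.22. The 3 mdx arrays of Cebpd were close to each other. At 14, 56 and 112 days the differences were 0.11, -0.32 and 0.72 for Fos, 0.28, 0.11 and 0.66 for Errfi1, and 0.34, 0.33 and 0.53 for Cebpd. The test of 28 days against the mean of the other ages gave 0.85 ± 0.39 for Fos, 0.60 ± 0.25 for Errfi1 and 0.34 ± 0.26 for Cebpd, none of them called.

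The sequence before the transcription start is shown for Dmwd, the called gene, and for Fos and Errfi1, which are classically induced through cyclic AMP signalling or growth factors. Each is the 250 bases upstream of the start, 5′ to 3′ on the gene's strand, from RefSeq on GRCm38.p6, and capitals mark TGACG, or CGTCA on the other strand, the core letters of the cyclic AMP response element. Dmwd lies at chr7:19075950-19076199 on the plus strand, Fos at chr12:85473640-85473889 on the plus strand and Errfi1 at chr4:150854820-150855069 on the plus strand.
Dmwd: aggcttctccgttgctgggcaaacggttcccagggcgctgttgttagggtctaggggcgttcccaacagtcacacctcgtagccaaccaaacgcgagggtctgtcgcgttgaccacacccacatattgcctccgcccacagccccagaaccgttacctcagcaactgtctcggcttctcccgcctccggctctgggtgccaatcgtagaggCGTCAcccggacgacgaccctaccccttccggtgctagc
Fos: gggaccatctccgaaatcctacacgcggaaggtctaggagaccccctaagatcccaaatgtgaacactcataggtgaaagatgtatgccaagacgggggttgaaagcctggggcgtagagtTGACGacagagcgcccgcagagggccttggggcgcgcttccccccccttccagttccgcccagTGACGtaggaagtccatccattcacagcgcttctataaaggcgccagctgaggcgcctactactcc
Errfi1: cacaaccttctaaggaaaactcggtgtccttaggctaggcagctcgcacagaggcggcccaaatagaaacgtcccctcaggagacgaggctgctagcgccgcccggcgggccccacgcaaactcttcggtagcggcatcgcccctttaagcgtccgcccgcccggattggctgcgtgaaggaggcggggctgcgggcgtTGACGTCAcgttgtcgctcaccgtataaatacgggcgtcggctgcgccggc
Dmwd held 1 core, 39 bases before the start, and Fos held 2, at 129 and 66 bases. Errfi1 held the full palindrome TGACGTCA, in which a core on each strand overlaps. A second start of Errfi1, with its window at chr4:150853546-150853795, held no core. Cebpd had no entry. The core was found in 19.8% of the 27025 genes of the promoter table, in 30.9% of the 4568 tested genes with an entry and in 16 of the 31 immediate early genes with an entry (51.6%). The full palindrome was found in 1.77%, 2.89% and 6.45% of the same sets. A match describes these letters only.

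Muscle and signalling genes made up part of the other higher values. Myl4, the light chain of embryonic and atrial muscle myosin, had 754.7, 958.2 and 706.1 in control and 1671, 1509 and 1218 in mdx muscle, a log2 difference of 0.85 ± 0.23. All mdx arrays lay above the control arrays, and the differences at 14, 56 and 112 days were 0.38, 1.72 and 1.47. A second Myl4 probe set gave 0.13 ± 0.27 with overlapping arrays, and -0.51, 0.30 and -0.01 at 14, 56 and 112 days. Pak2, a kinase that acts downstream of small GTPases, had 405.8, 652.2 and 281.2 against 766.5, 1126 and 821.3, a difference of 1.05 ± 0.33. Its other probe sets did not share this, with 0.08 ± 0.27 and 0.14 ± 0.18.

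Pdzd11, a PDZ-domain protein that binds membrane calcium pumps, had 264.1, 80.2 and 60.7 in control and 433.7, 299.0 and 313.0 in mdx muscle, a log2 difference of 1.5 ± 0.35 (limma adjusted p = 0.402). Control replicates 2 and 3 were low, while control replicate 1 came near the mdx arrays. Without control replicate 1 the difference was 2.07 (limma adjusted p = 0.00127) and Pdzd11 was called. Control means of the gene at the other ages lay between 329.2 and 373.4, near the 348.6 ± 74.1 (SD, n = 3) of mdx muscle at 28 days. Dicer1, which cuts microRNA precursors, had the same pattern of control arrays, with 111.8, 47.5 and 46.3 against 198.6, 176.1 and 218.7 in mdx muscle and a difference of 1.42 ± 0.48.

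Ccl8, a chemokine that attracts monocytes, had 70.8, 236.4 and 163.6 in control and 288.8, 460.2 and 444.2 in mdx muscle, a log2 difference of 1.36 ± 0.48. The groups did not overlap, though the control arrays were spread, and the differences at 14, 56 and 112 days were -0.47, 1.79 and 1.40. Glipr2, a Golgi-associated protein, had 130.6, 173.3 and 162.3 against 547.9, 331.0 and 235.9, a difference of 1.11 ± 0.37. Mdx replicate 1 was the highest by some way. The remaining higher genes were AW112010 (0.67 ± 0.22), Gnl3, a GTPase of the nucleolus (0.63 ± 0.21), and Pafah1b1, a regulator of dynein (0.37 ± 0.13), each with no overlap. Gnl3 and Pafah1b1 gave 0.82 ± 0.25 and 0.51 ± 0.15 in the test against the other ages, in which neither was called.

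Of the genes with lower values, Sgip1, an endocytic adaptor, had the largest difference. It had 145.0, 297.4 and 331.9 in control and 18.0, 47.5 and 28.1 in mdx muscle, a log2 difference of -2.51 ± 0.55 (limma adjusted p = 0.402). All 3 mdx arrays lay far below the control arrays, and among the other ages 1 array was as dim, control replicate 3 of 112 days with 26.5. When arrays were weighted by quality Sgip1 was called (-2.65, limma adjusted p = 0.0228), though the estimation of the weights stopped before it converged. Another 5 tested probe sets that the annotation assigns to Sgip1 together with other genes gave between -0.13 and 0.22. The 28-day difference minus the mean of the other ages was -2.87 ± 0.64 (limma adjusted p = 0.725).

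Erdr1, a small secreted regulator of erythroid differentiation encoded at the end of the sex chromosomes, had 1450, 4523 and 1520 in control and 586.1, 751.1 and 600.2 in mdx muscle, a log2 difference of -1.72 ± 0.36 (limma adjusted p = 0.346). Control replicate 2 stood above the rest, and all mdx arrays lay below all control arrays. The same probe set was lower in mdx muscle at 14, 56 and 112 days, with -1.26, -1.64 and -1.04, and the test of 28 days against the mean of these ages gave -0.41 ± 0.42. A second Erdr1 probe set gave -0.48 ± 0.45 with overlapping arrays.

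A gene of membrane traffic, Gga1, and the protease genes Ctrl and Ctse were among the other lower values. Gga1, a clathrin adaptor of the trans-Golgi network, had 358.2, 263.9 and 610.8 in control and 67.3, 144.7 and 138.2 in mdx muscle, a log2 difference of -1.66 ± 0.49. Ctrl, a chymotrypsin-like protease, had 223.5, 245.6 and 341.2 against 90.9, 84.0 and 71.5, a difference of -1.53 ± 0.52. The 3 mdx arrays of Ctrl lay in a narrow range well below the controls. Ctse, the aspartic protease cathepsin E, had 378.9, 215.0 and 561.0 against 213.3, 39.1 and 160.1, a difference of -1.52 ± 0.47. Its highest mdx array almost reached its lowest control array, and a second probe set gave -0.03 ± 0.24.

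Several metabolic enzymes had lower values in mdx muscle. Aldoa, the muscle aldolase of glycolysis, had 8396, 19428 and 19574 in control and 8069, 7221 and 6821 in mdx muscle, a log2 difference of -1.0 ± 0.32. Control replicate 1 lay just above the mdx arrays, and without control replicates 2 and 3 the difference was -0.19. A second Aldoa probe set gave -0.61 ± 0.76 with overlapping arrays. Tm7sf2, a sterol reductase, had a difference of -1.52 ± 0.54 in 1 probe set and 0.13 ± 0.24 in another, and Acy3, an aminoacylase, had -1.45 ± 0.51. Csnk2a1, a catalytic subunit of casein kinase 2, had -0.94 ± 0.33 in the probe set named by the rule, against 0.33, 0.33 and -0.32 in its others. The probe set at -0.32 also had all mdx arrays below all control arrays, whereas the arrays overlapped in those at 0.33. C030006K11Rik had -0.76 ± 0.27. In Tm7sf2 and Csnk2a1 probe sets of the same gene thus pointed different ways.

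The gene lists were read by counts, medians and levels per array, beside the same values over all probe sets. Mean log2 levels over all tested probe sets were 9.16, 9.13 and 9.18 in control and 9.16, 9.15 and 9.19 in mdx arrays, with overlap. Limma called 0 members of each list, and counts at an unadjusted p under 0.05 are given for the lists described in detail. Over all tested probe sets 1.54% were higher and 1.49% lower at that p, and the mdx arrays lay wholly above the control arrays in 4.31% and wholly below in 3.38%. The probe set with the highest mean level stood for a gene. The lists were chosen with results of these data known, so their counts describe the arrays and test nothing.

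Immediate early genes, which are transcribed within minutes to hours of a stimulus such as nerve activity or injury, had 36 tested members. Of these 29 were higher and 7 lower in mdx muscle, with a median log2 difference of 0.27, against 53.5% of all tested probe sets higher, 46.5% lower and a median of 0.02. In 7 members (19.4%) all mdx arrays lay above all control arrays, against 4.31% of all probe sets, and 5 had an unadjusted p under 0.05. Besides Fos and Cebpd, Zfp36, which speeds the decay of inflammatory mRNAs, had 351.6, 355.1 and 409.9 in control and 682.6, 853.7 and 536.3 in mdx muscle, a difference of 0.84 ± 0.31. Btg2, an antiproliferative gene, had 0.41 ± 0.18 with overlapping arrays. The mean log2 level of the list was 9.47, 9.57 and 9.57 in the control arrays and 9.72, 9.80 and 9.84 in the mdx arrays, which did not overlap. The medians at 14, 56 and 112 days were 0.06, -0.02 and 0.24.

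Macrophage and monocyte genes had 31 tested members, 21 higher and 10 lower, with a median log2 difference of 0.13. In 6 (19.4%) the mdx arrays all lay above the control arrays, against 4.31% of all probe sets, and in 0 all below. At an unadjusted p under 0.05 there were 4, all higher. Lyz2, lysozyme of myeloid cells, had 955.3, 765.4 and 1077 in control and 1666, 1506 and 1811 in mdx muscle, a difference of 0.83 ± 0.32. Ctss, the lysosomal protease cathepsin S, had 664.6, 590.3 and 510.6 against 731.9, 970.6 and 931.8, a difference of 0.56 ± 0.24. Both genes had every mdx array above every control array, as did Ccl8, while Mrc1, the mannose receptor, overlapped (0.67 ± 0.31). The mean log2 level of the list was 8.82, 8.80 and 8.83 in control and 9.02, 8.97 and 9.11 in mdx arrays, without overlap, and its summed intensity was 24358 to 25890 in control and 26649 to 28138 in mdx muscle. Medians at 14, 56 and 112 days were -0.05, 0.40 and 0.25. In whole tissue, more macrophages and more RNA per macrophage cannot be told apart, and the same holds for every cell type here.

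Antigen presentation and interferon response genes had 31 tested members, 25 higher and 6 lower, with a median of 0.16. In 5 (16.1%) the mdx arrays all lay above the control arrays, against 4.31% of all probe sets, and 1 had an unadjusted p under 0.05. Iigp1, an interferon-induced GTPase, had 116.2, 49.6 and 229.2 in control and 272.2, 275.6 and 238.6 in mdx muscle, a difference of 1.11 ± 0.48, and a second probe set gave -0.15 ± 0.38. The transcription factor Irf7 had 0.48 ± 0.34 without overlap, and Ifi204 and Ifitm3, both interferon-induced, had 0.54 ± 0.33 and 0.38 ± 0.29 with overlap. Mean log2 levels of the list were 8.80, 8.68 and 8.67 in control and 8.98, 8.85 and 9.02 in mdx arrays. The median was -0.01 at 14 days and 0.59 at both 56 and 112 days.

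Myogenic regeneration genes, the transcription factors, surface proteins and embryonic sarcomere proteins of newly forming fibres, had 23 tested members, 17 higher and 6 lower, with a median of 0.17. In 5 (21.7%) the mdx arrays all lay above the control arrays, against 4.31% of all probe sets. In 1 (4.35%) they all lay below, near the 3.38% of all probe sets, and 1 member was higher and 1 lower at an unadjusted p under 0.05. After Myl4, Tnnt2, the embryonic and cardiac troponin T, had 249.7, 236.9 and 220.8 in control and 355.5, 322.0 and 323.3 in mdx muscle, a difference of 0.47 ± 0.28. Cdh15, the cadherin of satellite cells, had 0.35 ± 0.24, also without overlap. Actc1, the cardiac actin of embryonic muscle, ran the other way, with 11261, 18391 and 19534 in control and 10525, 10377 and 10680 in mdx muscle, a difference of -0.60 ± 0.26. The embryonic myosin Myh3 and the perinatal myosin Myh8, named for their role and not for their values, had -0.24 ± 0.94 and 0.10 ± 0.50. Mean log2 levels of the list were 9.89, 9.93 and 9.94 in control and 10.02, 10.07 and 10.09 in mdx arrays.

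**Figure D4:**
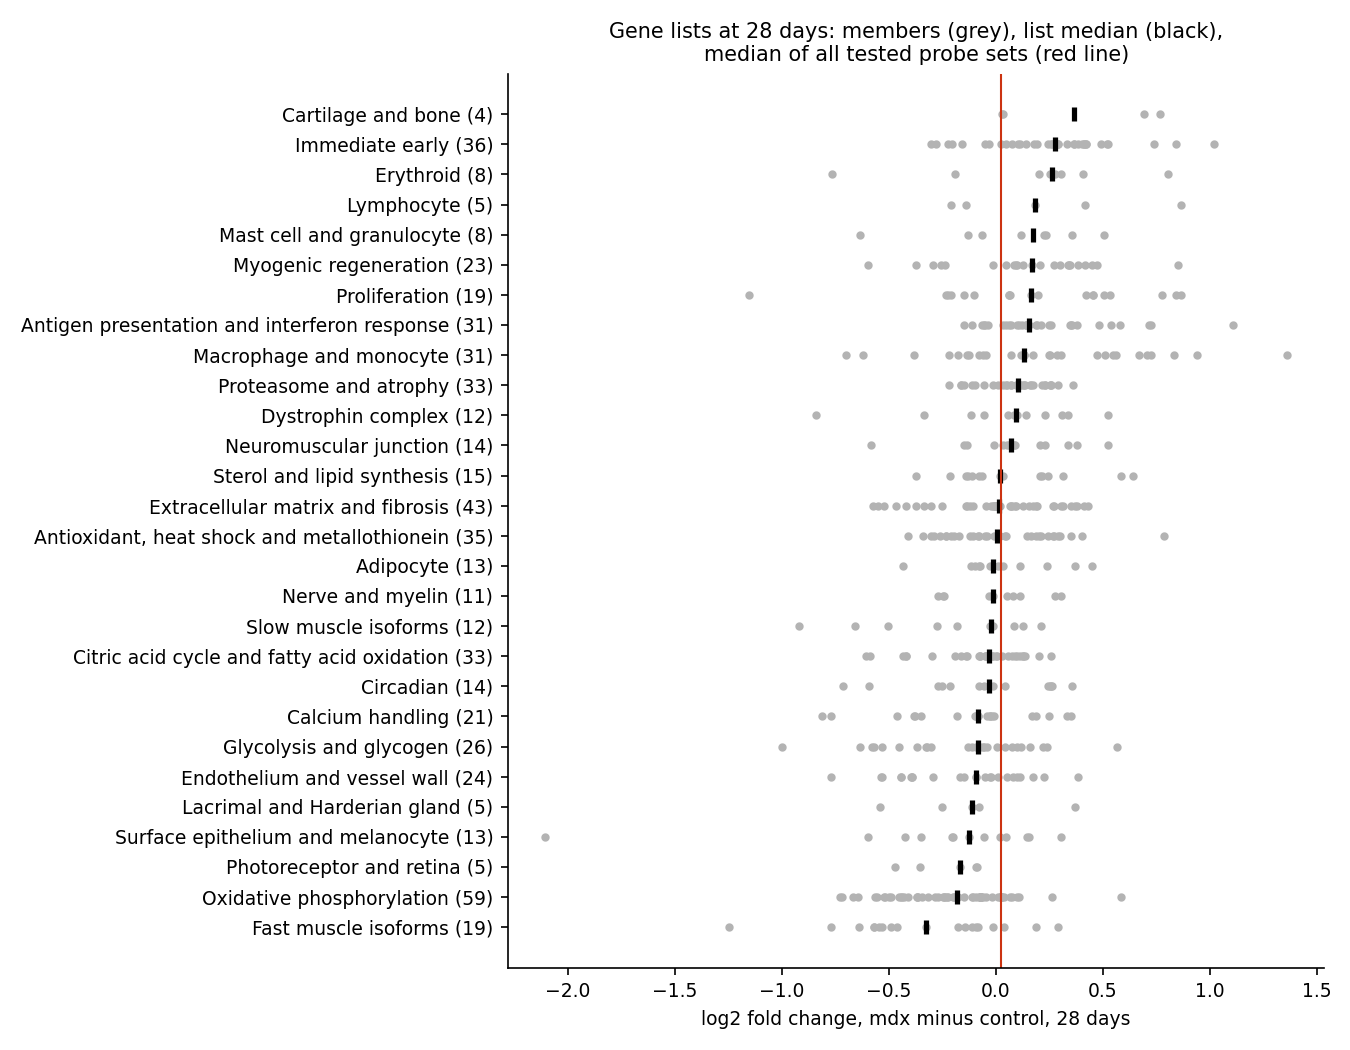
Log2 fold change at 28 days (x axis, mdx minus control) of the tested members of each gene list (grey points, number tested in brackets), with the list median as a black bar and the median of all tested probe sets, 0.02, as a red line. Immediate early genes had a median of 0.27 and fast muscle isoforms of -0.33, and no member of any list was called.

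Fast contractile and respiratory chain genes had the lowest list medians. Fast muscle isoforms had 19 tested members, 3 higher and 16 lower, with a median of -0.33, but in 0 of them did all mdx arrays lie below all control arrays and 0 had an unadjusted p under 0.05. Tnnt3, fast troponin T, had 12592, 26814 and 28305 in control and 12098, 14127 and 17117 in mdx muscle, a difference of -0.57 ± 0.35. Myh1 had 11705, 22383 and 28543 against 11031, 12044 and 14871, a difference of -0.64 ± 0.35. In both genes control replicates 2 and 3 were high and control replicate 1 lay among the mdx arrays. Pfkm, muscle phosphofructokinase, and Casq1, the calcium store protein of fast fibres, had -0.57 ± 0.27 and -0.77 ± 0.53 with the same pattern.

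Oxidative phosphorylation genes, which encode the respiratory chain, had 59 tested members, 14 higher and 45 lower, with a median of -0.18. In 3 (5.08%) the mdx arrays all lay below the control arrays, against 3.38% of all probe sets, and 3 had an unadjusted p under 0.05, all lower. Sdhb, the iron-sulphur subunit of succinate dehydrogenase, had 8439, 8919 and 11173 in control and 5556, 5619 and 6707 in mdx muscle, a difference of -0.67 ± 0.23. Here all 3 control arrays stood above the mdx arrays. Uqcrc1 of complex III and Ndufa5 and Ndufv2 of complex I had -0.43 ± 0.20, -0.49 ± 0.24 and -0.50 ± 0.27, with overlap. Glycolysis genes had 26 tested members, 9 higher and 17 lower, with a median of -0.08 and 1 at an unadjusted p under 0.05. The mdx arrays of 4 (15.4%) lay wholly below the control arrays, against 3.38% of all probe sets, among them Aldoa and the phosphoglucomutase gene Pgm1 (4870, 5133 and 5511 against 3483, 3405 and 3086, a difference of -0.64 ± 0.31). Mean log2 levels of the glycolysis list were 11.18, 11.13 and 11.35 in control and 11.10, 11.03 and 11.05 in mdx arrays, without overlap.

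In both lists the control arrays differed among themselves. The mean log2 level of fast muscle isoforms was 12.26, 12.98 and 13.07 in the control arrays and 12.23, 12.48 and 12.61 in the mdx arrays. That of oxidative phosphorylation was 12.13, 12.36 and 12.38 against 12.02, 12.09 and 12.16. Control replicates 2 and 3, the highest in both lists, were also the arrays with the largest single intensities. Those intensities were of fast muscle genes, Tnnt3 on control replicate 2 (26814) and Myh1 on control replicate 3 (28543). On the other 28-day arrays the largest intensity was of Tnnt3 or of Cox6c, a respiratory chain gene. The 373 brightest probe sets, the top 5% of those tested, split into 135 higher and 238 lower in mdx muscle, and they include 13 of the fast muscle and 44 of the oxidative phosphorylation genes. The fast muscle median was -0.05 after quantile normalization and 0.12 with the largest signal as a covariate, and that of oxidative phosphorylation 0.00 and 0.03. The same settings gave 0.26 and 0.26 for immediate early and 0.12 and 0.24 for macrophage genes. Without control replicates 2 and 3, which leaves 1 control array, the medians were -0.01, -0.04, 0.27 and 0.21 in the same order of lists. Those arrays were left out after they were seen to be high in the fast muscle and respiratory lists, so for these lists a median nearer to 0 was fixed by that choice. The largest signal was that of a fast muscle or respiratory chain gene on every 28-day array. As a covariate it adjusts these lists partly for their own members, so their medians under that setting cannot test them. Quantile normalization gives every array the same distribution of intensities, its bright end included. These lists have 13 and 44 of their members among the brightest 5%, so their medians under quantile normalization cannot test them either.

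**Figure D5:**
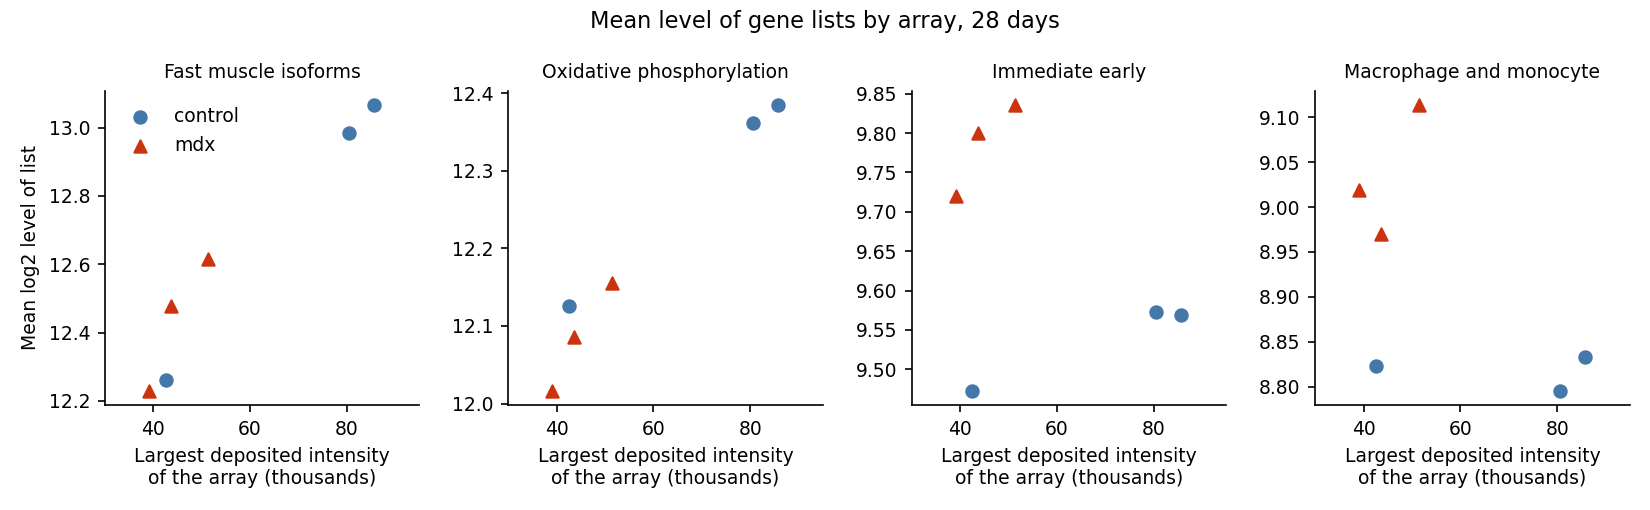
Mean log2 level of 4 gene lists (y axis, not from 0) against the largest deposited intensity of each 28-day array (x axis, in units of 1000), control as blue circles and mdx as red triangles. Fast muscle and oxidative phosphorylation levels lay high on the 2 control arrays with the largest signals, and the immediate early and macrophage levels of all mdx arrays lay above those of all control arrays. On each array the largest signal was that of a fast muscle or oxidative phosphorylation gene, so the axes of those panels are not independent.

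In other muscle lists the medians were closer to 0, though most members of some were lower. Slow muscle isoforms had 3 higher and 9 lower of 12, with a median of -0.03. Calcium handling had 5 higher and 16 lower of 21, with a median of -0.08. Fatty acid oxidation with the citric acid cycle had 13 higher and 20 lower of 33, with a median of -0.03. The proteasome list had 25 of 33 members higher, with a median of 0.10. In 1 (3.03%) the mdx arrays all lay above the control arrays, against 4.31% of all probe sets. The neuromuscular junction list had 10 of 14 higher, with a median of 0.07, and Ache, which breaks down acetylcholine at the junction, had 1189, 900.8 and 1266 in control and 663.3, 866.3 and 687.5 in mdx muscle, a difference of -0.58 ± 0.32. Extracellular matrix genes, which encode the collagens and other proteins of scar tissue, had 25 higher and 18 lower of 43, with a median of 0.01. In 2 (4.65%) the mdx arrays all lay above the control arrays, against 4.31% of all probe sets. In 3 (6.98%) they all lay below, against 3.38%, and 1 member of the list was lower at an unadjusted p under 0.05. Thbs2, a matricellular thrombospondin, had -0.52 ± 0.25 and Col6a3, a collagen VI chain, 0.35 ± 0.18.

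Proliferation genes had 19 tested members, 13 higher and 6 lower, with a median of 0.16, and 4 (21.1%) lay wholly above the control arrays, against 4.31% of all probe sets. At an unadjusted p under 0.05, 3 were higher and 1 lower. Mcm4, a subunit of the replicative helicase, had 187.8, 48.0 and 180.3 in control and 238.0, 227.1 and 235.1 in mdx muscle, a difference of 0.87 ± 0.36. Control replicate 2 was the low array, and without it the difference was 0.32. Pcna, the sliding clamp of DNA replication, had 0.45 ± 0.21. Tk1, thymidine kinase, went the other way with -1.16 ± 0.49. Without control replicate 1 the median of the list was -0.07. Antioxidant and stress genes had 18 higher and 17 lower of 35 with a median of 0.00, with the metallothionein Mt2 at 0.79 ± 0.35 and the thioredoxin reductase Txnrd1 at -0.41 ± 0.16, each without overlap and the only members at an unadjusted p under 0.05. Of this list 8.57% lay wholly above the control arrays, against 4.31% of all probe sets, and 2.86% wholly below, against 3.38%.

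Markers of tissues that could come with the muscle were compared in the same way. Endothelium and vessel wall genes had 8 higher and 16 lower of 24, a median of -0.09, with Tagln and Myh11, both of smooth muscle, at -0.53 ± 0.28 and -0.77 ± 0.50 without overlap. The mdx arrays of 2 members (8.33%) lay wholly below the control arrays, against 3.38% of all probe sets, and 0 had an unadjusted p under 0.05. Surface epithelium had 5 higher and 8 lower of 13 and a summed intensity of 6333 to 16184 in control against 5550 to 6634 in mdx arrays, to which Sprr1b, a protein of the cornified envelope, contributed most (2218, 10472 and 11800 against 2535, 694.8 and 1890). Sprr1b was high on control replicates 2 and 3, the same arrays that were high in the fast muscle and respiratory lists, and its part in those values was not tested. Nerve (11 tested) and adipocyte (13) genes had medians of -0.01 each, lacrimal gland (5) of -0.11, photoreceptor (5) of -0.17, mast cell (8) of 0.17, lymphocyte (5) of 0.18, erythroid (8) of 0.26 and cartilage (4) of 0.36. Mean log2 levels of the cartilage list were 8.15, 8.20 and 8.32 in control and 8.77, 8.53 and 8.52 in mdx arrays, without overlap. Only 4 of its 12 genes on the array were tested. In 0 of these did all mdx arrays lie above all control arrays, and 0 had an unadjusted p under 0.05. List means of mdx and control arrays overlapped in all lists but immediate early, macrophage, antigen presentation, myogenic regeneration, glycolysis and cartilage. No list had a member at 0 in either group.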

How the data were processed

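Total RNA of mouse extraocular muscle was measured on 24 Affymetrix arrays, grouped by title into 8 groups of 3. The deposited values are linear intensities, 1 per probe set and array. The labels name a standard Affymetrix protocol, and the software that made the values is not given in the sources used here. The deposited table held 12488 probe sets with 0 missing values, 0 identical columns and 0 unused columns.

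Values under 1 (44 values) were set to 1, each array was scaled to a trimmed mean of 500 (2% cut from each end), and log2(value + 16) was used, so differences of dim probe sets are understated. The 66 control probe sets were removed, and probe sets at or above the 40th percentile of mean level (an intensity of 125.7) were tested, which kept 7453 of 12422. A model of 8 group means (16 residual degrees of freedom, variance trend on level) was fitted to all arrays with limma 3.58.1 in R 4.3.3. Tests were two-sided, with Benjamini-Hochberg adjustment over all 7453 probe sets. The fit was tested on simulated data. Precision is limited by the number of arrays.

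In the platform annotation 10833 probe sets had 1 symbol, 396 had several and 1193 had none. Of the first, 10817 matched a RefSeq gene table of GRCm38.p6 and 0 symbols changed. The tested probe sets with 1 symbol numbered 6714, for 5675 genes. Promoter sequences are from RefSeq (GRCm38.p6), where 3 of 4 genes asked for had an entry.

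Named were Dmd and Utrn, called probe sets with their neighbours (up to 5 on each side), the 12 largest differences in each direction with an unadjusted p under 0.01 and no overlap of arrays, and up to 4 members of each of 28 gene lists by smallest p. Myh3 and Myh8 were added for their role. The members and lists were chosen with earlier results of these data known. The alternatives varied the offset, the filter, the scaling, the arrays fitted, the replicate block, the variance trend, array weights and the arrays left out. Leaving out control replicates 2 and 3 together was chosen after seeing the data.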

Additional observations from a re-analysis of the deposited data

Results flagged for a closer look

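The difference of Dmwd at 28 days was unlike that of the other ages. The 28-day log2 difference minus the mean of the differences at 14, 56 and 112 days was -2.26 ± 0.27 (SE; limma adjusted p = 0.000244), with all 3 mdx arrays of 28 days below the other 21 arrays. Of the 7453 probe sets 1 was called in this test.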

How the results depend on the processing

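With 3 arrays a group, only large differences can be called. Over 19 alternative settings and 1 added after seeing the data, 1466 of 1497 gene values kept their direction and their side of the threshold, and 30 of 560 list medians moved by more than their spread. Leaving out 1 array cannot turn the sign of a gene chosen for groups without overlap. Apart from Dmwd, the genes counted were uncalled in the main fit. For them, keeping their side of the threshold means only that they stayed uncalled. Dmwd lay between -1.79 and -2.48 wherever it was tested, and Dmd, never called, between -0.66 and -0.92. The count of 1 called at 28 days was 0 with a filter at the 60th percentile, which removes Dmwd (132 at an unadjusted p under 0.05), 0 with only the 28-day arrays (233; Dmwd -2.26, limma adjusted p = 0.173), 3 with array weights (Dmwd, Sgip1 at -2.65, and Dynlt1a with Dynlt1c at -1.45), whose estimation stopped before it converged, and 2 without control replicates 2 and 3. That setting leaves 1 control array, assumed to vary like the other groups, and its second call was a probe set shared by Bcl2a1 genes and Mthfs (2.71). Leaving out single arrays gave counts of 1 to 2 at 28 days, the 2 being without control replicate 1 (Dmwd and Pdzd11, the latter 2.07), and of 1 to 3 for the test against other ages. That test called 0 with the stricter filter (165 at an unadjusted p under 0.05) and 2 with array weights (Dmwd and Sgip1). The causes were not tested, apart from the filter.

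Same-numbered mdx and control arrays had correlations of deviations of 0.19, 0.13 and 0.07 at 28 days, each array highest with its own number. At 112 days they were 0.03, 0.03 and 0.06, again each highest with its own number, and at 14 and 56 days between -0.06 and 0.15. Whether the numbers pair the arrays cannot be told from these values. The main fit treats the arrays as unpaired, and fits with a replicate block are given beside it. The replicate block over all arrays left 1 probe set called in each test (Dmwd, limma adjusted p = 0.00241 and 0.0129). With the block and only the 28-day arrays it called 0 (385 at an unadjusted p under 0.05; Dmwd -2.26, limma adjusted p = 0.241).

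Signs turned as follows, the cause not tested. With the largest signal as a covariate, Aldoa's second probe set was 0.23, Casq1 0.19, Myh1 0.00965, Myh8 -0.090, Pak2's second -0.22 and Tnnt3 0.065. Without control replicates 2 and 3, the values were 0.10 for Aldoa's second, 0.29 for Casq1, -0.033 for a Csnk2a1 probe set, 0.11 for Ctse's second, 0.18 for Dmpk, 0.10 for Myh1, -0.58 for Pak2's second, -0.14 for Sgce, -0.068 for Tm7sf2's second, 0.18 for Tnnt3 and -0.034 for Utrn. Tnnt3 was 0.018 after quantile normalization and Utrn -0.023 with array weights. Without single arrays, another Csnk2a1 probe set ranged from -0.15 to 0.97, Ctse's second from -0.30 to 0.30, Pak2's second from -0.23 to 0.40, Tm7sf2's second from -0.036 to 0.23 and Utrn from -0.24 to 1.01.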

Other observations

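Some probe sets without a single gene name also had an unadjusted p under 0.01 and no overlap between the 28-day groups. A probe set of the dynein light chain genes Dynlt1a and Dynlt1c, which cannot be told apart, had a log2 difference of -1.23 ± 0.30, and one of the Plac9 family had -0.97 ± 0.23. A probe set shared by Tmed2, which carries cargo out of the endoplasmic reticulum, and Gm10698 had 1.12 ± 0.36. Probe sets with no symbol had -1.85 ± 0.50 and -1.07 ± 0.36. Among genes with a name of their own but a smaller difference, Ung, a DNA repair enzyme, had -0.70 ± 0.21 and Cenpb, a centromere protein, had -0.66 ± 0.22. None of these was called by limma with equal array weights. With array weights, whose estimation stopped before it converged, the Dynlt1a and Dynlt1c probe set was called (-1.45, limma adjusted p = 0.0119).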
